A study of Mus musculus with 35 samples.

Results

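The mitochondrial carrier family (SLC25) is a set of membrane transport proteins, most of them in the inner mitochondrial membrane. Chromatin accessibility around its genes was followed in mouse hepatocytes during cancer and cachexia, the wasting that accompanies some tumors. Members were all regions of the deposited accessibility table whose nearest transcription start site belonged to a gene with a name beginning Slc25a, a single family member aside, and lay at most 100 kb away. They numbered 459 of 177904 regions and named 45 genes. The measure was ATAC-seq, in which a transposase cuts accessible DNA, and each value is the number of tags in a 400 bp region per 10000000 tags of the library, written below as scaled tags. All regions have the same width, so levels can be compared between genes. Naming a region after the nearest start site does not say which gene it acts on.

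All mice carried CAG-Sun1/sfGFP and Albumin-Cre, so hepatocytes bear a tagged nuclear envelope by which their nuclei were purified (INTACT). BALB/c mice received PBS or C26 cells, which cause cachexia, and C26 mice were sampled in pre-cachexia or in cachexia (n = 4 in each of these 3 groups). BALB/c mice of another cohort received PBS or NC26 cells, whose tumors leave body weight stable (n = 4 each). C57BL/6N mice received PBS or MC38 cells, also weight-stable (n = 4 each), or PBS (n = 3, replicates 1, 2 and 4) or 8025 cells, which cause cachexia (n = 4). Livers were taken at ZT 9, and in C26 and 8025 cachexia once more than 10% of body weight was lost. Labels give no mouse age, and each library has its own animal. Strain, cohort and tumor line go together, so between cohorts they cannot be told apart, and effects were first taken against the PBS group of the same cohort. Because this is bulk data, a lower value can mean fewer nuclei with the region open or less opening in each nucleus, and these cannot be told apart.

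Most SLC25 proteins exchange 1 metabolite for another across the inner mitochondrial membrane, and so connect the matrix with the cytosol. In hepatocytes they serve several routes: citrate leaves the matrix for fatty acid synthesis, acylcarnitines enter it for oxidation, and the malate-aspartate shuttle and the urea cycle depend on carriers of aspartate, glutamate and malate. Other members carry nucleotides, coenzyme A, NAD, S-adenosylmethionine, phosphate, iron or glutathione.

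Of the 459 regions, 112 lay within 1 kb of the start site, 221 lay inside the body of the named gene and 60 only inside another protein-coding gene. The authors' annotation put 216 in introns, 126 between genes and 68 in promoters. Regions overlap where peaks of different libraries did not coincide, so that 185 overlapped another member and the 459 regions covered 352 separate places. For 100 regions every one of the 35 libraries had a peak, and 108 had a peak in a single library. Slc25a13 had 51 regions, Slc25a51 had 36, Slc25a33 had 35 and Slc25a25 had 28. The limit of 100 kb left out 17 regions. Just inside it lay regions of Slc25a26 at 99746 and 98256 bp (means over all libraries of 19.4 and 19.5 scaled tags) and of Slc25a13 at 98915 bp (2.32), and just outside it 3 regions of Slc25a13 at 101249, 103208 and 111410 bp (5.44, 4.06 and 12.8).

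Libraries held 11344524 to 23754031 tags, and 3474742 in replicate 1 of NC26 tumor, with 37.3% to 62.9% of each library's tags inside the tabulated regions. Of the hepatocyte markers, 6 of 7 had a region within 1 kb of the start site, with a mean level of 146 scaled tags, whereas 0 of 7 lymphocyte markers and 1 of 7 macrophage markers had one, the latter at 3.56. Farther regions were present, and of 12 nearest to lymphocyte markers 5 rose and 0 fell in C26 cachexia against pre-cachexia. Of 303 regions nearest to hepatocyte markers 54 rose and 2 fell there, beside 2.16% and 3.24% of all regions. Against PBS, 0 lymphocyte marker regions were called in C26 or 8025 cachexia. The share of signal in promoters was 35.1% to 35.9% in C26 cachexia and 33.5% to 34.7% in C26 PBS, and 33.03% to 35.5% in 8025 cachexia and 34.2% to 35.7% in 8025 PBS. Summed markers of other cells differed between groups. For cholangiocytes, 3 of 5 markers had a region, summing to 68.9 to 80.3 in C26 cachexia against 33.3 to 64.1 in C26 PBS, and to 94.5 to 126 in 8025 cachexia against 61.0 to 90.3 in 8025 PBS, while of all 39 regions nearest to cholangiocyte markers 2 rose and 5 fell in C26 and 3 rose and 1 fell in 8025. The 2 of 6 neutrophil markers with a region summed to 52.8 to 57.7 against 28.2 to 48.1 in C26, and to 46.7 to 73.6 against 38.3 to 42.4 in 8025. The 4 of 6 stellate cell markers with a region summed to 54.2 to 67.9 against 49.5 to 80.3 in C26, and lower, to 53.7 to 71.3 against 73.5 to 91.1, in 8025. The single endothelial marker with a region, of 7, had 10.28 to 14.8 against 7.97 to 10.25 in C26 and 7.37 to 11.2 against 4.99 to 9.26 in 8025. The macrophage marker had 2.59 to 8.91 against 1.27 to 4.35 in C26 and 3.39 to 8.73 against 1.03 to 3.53 in 8025. Among all 23 regions nearest to neutrophil markers 5 rose and 1 fell in C26, and 2 rose and 0 fell in 8025. Among 20 nearest to macrophage markers 1 rose in C26 and 3 in 8025, and 0 fell. For stellate cells (23 regions) 0 rose and 3 fell in C26, and 1 rose and 5 fell in 8025. For endothelium (58 regions) 4 rose and 6 fell in C26, and 5 rose and 2 fell in 8025. Among the 303 hepatocyte marker regions 25 rose and 10 fell in C26 against PBS, and 6 rose and 11 fell in 8025. Over all regions 6.91% rose and 7.13% fell in C26, and 6.99% and 5.38% in 8025. The part of these marker differences in the results below was not tested.

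Promoters of the family were open in hepatocytes. A region within 1 kb was present for 41 of the 45 genes, the exceptions being Slc25a31, Slc25a37, Slc25a41 and Slc25a54, and the region nearest each start site had a median level of 122 scaled tags, compared with 45.9 over 21692 regions annotated as promoters and 12.7 over the member regions farther than 1 kb away. The family median takes only the nearest region of each gene, whereas the 21692 regions include every region so annotated. These sets are unlike, so the medians do not show that the family's promoters are more open than others. The phosphate carrier gene Slc25a3 was highest (332 ± 45.9, mean ± SD over 35 libraries, range 251 to 442), and other high promoters were those of the folate carrier Slc25a32 (283 ± 44.1), the mitoferrin Slc25a28 (212 ± 27.3) and the glutathione carrier Slc25a39 (204 ± 33.3). Slc25a28 and Slc25a39 did not differ beyond their spread. At the other end stood Slc25a18, a glutamate carrier (3.31 ± 1.67), Slc25a43 (3.53 ± 1.37), the ATP-Mg/phosphate carrier Slc25a24 (5.53 ± 2.39), Slc25a53 (8.64 ± 2.43) and the ADP/ATP carrier Slc25a4 (9.11 ± 3.61). The ADP/ATP carrier Slc25a5 stood at 92.0 ± 15.6, its range (66.1 to 141) lying wholly above that of Slc25a4 (3.36 to 17.3). Likewise the aspartate/glutamate carrier Slc25a13 was at 180 ± 25.3 and its relative Slc25a12 at 80.1 ± 13.9, without overlap between the ranges (136 to 242 and 50.2 to 105).

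Promoter sequence is shown for 4 genes whose promoter regions turned out to differ between groups, the citrate carrier Slc25a1 and the dicarboxylate carrier Slc25a10 with falls, the oxoglutarate carrier Slc25a11 and Slc25a16 with rises. For Slc25a10 the window lies outside the falling region at -924 bp. It overlaps part of the falling region at -279 bp and part of the region at the start itself, which did not pass the test. Each line gives the 250 bases before the start site in RefSeq (GRCm38.p6), 5′ to 3′ on the strand of the gene, and capitals mark matches on either strand to 9 short motifs. Slc25a1 is at chr16:17928220-17928469 (minus strand), Slc25a10 at chr11:120491587-120491836 (plus), Slc25a11 at chr11:70647040-70647289 (minus) and Slc25a16 at chr10:62920383-62920632 (plus).
Slc25a1: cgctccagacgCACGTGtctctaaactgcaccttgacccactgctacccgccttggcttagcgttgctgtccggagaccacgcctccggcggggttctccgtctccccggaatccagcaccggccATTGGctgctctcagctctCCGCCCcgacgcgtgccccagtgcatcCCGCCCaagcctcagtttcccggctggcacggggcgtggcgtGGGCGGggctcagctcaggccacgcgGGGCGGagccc
Slc25a10: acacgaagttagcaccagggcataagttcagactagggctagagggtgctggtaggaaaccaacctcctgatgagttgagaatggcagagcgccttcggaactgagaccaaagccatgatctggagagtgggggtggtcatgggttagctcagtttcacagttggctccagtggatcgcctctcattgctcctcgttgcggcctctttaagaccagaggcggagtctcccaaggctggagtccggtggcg
Slc25a11: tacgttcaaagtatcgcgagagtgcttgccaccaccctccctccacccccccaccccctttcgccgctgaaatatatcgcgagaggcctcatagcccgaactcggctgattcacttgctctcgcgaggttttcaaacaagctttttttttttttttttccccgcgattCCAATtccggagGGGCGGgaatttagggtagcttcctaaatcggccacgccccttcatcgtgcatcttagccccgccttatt
Slc25a16: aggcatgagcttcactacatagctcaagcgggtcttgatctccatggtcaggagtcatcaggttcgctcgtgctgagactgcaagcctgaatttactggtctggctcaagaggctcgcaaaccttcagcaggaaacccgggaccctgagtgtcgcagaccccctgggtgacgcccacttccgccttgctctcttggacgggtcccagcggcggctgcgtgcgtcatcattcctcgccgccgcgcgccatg

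The E-box was searched as CACGTG, the GC box as GGGCGG and the CCAAT box by its own letters. The ETS site was CCGGAAG, the NRF1 core was GCGCATGC and the cyclic AMP response element (CRE) was TGACGTCA. The sterol regulatory element was TCACNCCAC, the STAT site was TTCNNNGAA and the C/EBP site was TTGCNNAA. Both strands were searched, and the matches in the 4 windows did not overlap each other. Slc25a1 held 1 E-box, 4 GC boxes and 1 CCAAT box, Slc25a11 held 1 GC box and 1 CCAAT box, and no letters of these motifs were found in the windows of Slc25a10 and Slc25a16. Base composition differed as well, with 70.0% G and C for Slc25a1, 56.0% for Slc25a10, 53.2% for Slc25a11 and 60.8% for Slc25a16. RefSeq windows were matched for 35 of the 45 genes (44 windows). A GC box was in 68.2% of them and in 32.7% of all 32851 windows, a CCAAT box in 47.7% and 33.8%, an E-box in 15.9% and 6.02%, and an ETS site in 13.6% and 6.91%. For the other motifs the shares were 4.55% and 2.26% (NRF1 core), 4.55% and 1.55% (CRE), 2.27% and 1.05% (sterol regulatory element), 4.55% and 7.02% (STAT) and 6.82% and 9.56% (C/EBP). These windows also differed in composition, with a median of 57% G and C in the family and 52.4% in all.

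In C26 cachexia compared with C26 PBS, 24 of the 45 genes had at least 1 called region, in both directions. The share of all genes with a call was not counted. Rises were called at carrier genes for S-adenosylmethionine, and falls at those for iron, dicarboxylates, citrate and aspartate/glutamate. Carrier genes for coenzyme A, pyrimidine nucleotides and NAD had rises and falls. Of the 24 genes 10 had rises only, 9 had falls only and 5 had both, among them the coenzyme A carrier Slc25a42 (2 rises, 3 falls), the NAD carrier Slc25a51 (3 and 2) and the pyrimidine nucleotide carriers Slc25a33 (4 and 1) and Slc25a36 (1 and 2). By limma with Benjamini-Hochberg adjustment over 177251 regions (adjusted p under 0.05), 27 member regions rose, 5.88% against a background of 6.91% over all regions, and 32 fell, 6.97% against 7.13%. The family as a whole was therefore called about as often as any region, and the median log2 change was -0.067 (all regions -0.014). Scaled by library totals alone, 23 rose and 7 fell.

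In 8025 cachexia compared with 8025 PBS, 28 member regions rose (6.1%, background 6.99%) and 24 fell (5.23%, background 5.38%), at 22 genes. The share of all genes was not counted here either. The median log2 change was -0.043 (all regions -0.012), and with library totals alone 26 rose and 9 fell. Of the 112 member regions within 1 kb of a start site, 2 rose (1.79%) and 12 fell (10.7%) in 8025, beside 2.83% and 4.43% of all such regions, and 7 rose (6.25%) and 7 fell (6.25%) in C26, beside 6.51% and 3.16%. With 1 region per gene, at 41 promoters, 0 rose and 2 fell in 8025 and 5 rose and 1 fell in C26. These shares were not tested, and for no member region was the difference of the 2 effects called.

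Calls are given next by what the carriers transport, beside the shares over all regions of 6.91% higher and 7.13% lower in C26 and 6.99% and 5.38% in 8025. Of 225 regions at 18 nucleotide and cofactor carriers, 21 rose (9.33%) and 10 fell (4.44%) in C26 cachexia and 24 rose (10.7%) and 5 fell (2.22%) in 8025 cachexia, 10 of these 24 at Slc25a25. Of 95 regions at 8 amino acid and glutathione carriers, 2 rose (2.11%) and 6 fell (6.32%) in C26, all 6 at Slc25a13, and 0 rose and 10 fell (10.5%) in 8025, 4 of them at Slc25a13. The 50 regions at 6 carboxylate and acylcarnitine carriers gave 2 rises (4%) and 8 falls (16%) in C26, 4 of the falls at Slc25a10, and 2 rises (4%) and 4 falls (8%) in 8025. At the 2 iron carriers (8 regions) 3 regions fell in C26 (37.5%) and 2 in 8025 (25%) and 0 rose, all at Slc25a37, and at the 3 uncoupling-like carriers (22 regions) 3 fell in C26 (13.6%), all at Slc25a30, and 1 rose in 8025 (4.55%). The remaining 8 genes (59 regions) gave 2 rises (3.39%) and 2 falls (3.39%) in C26 and 1 rise (1.69%) and 3 falls (5.08%) in 8025. These are counts of regions that partly overlap, and the difference between groups was not tested. They also depend on the assignment of genes: Slc25a29, which also transports basic amino acids, was counted with the carboxylate and acylcarnitine carriers.

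**Figure D1:**
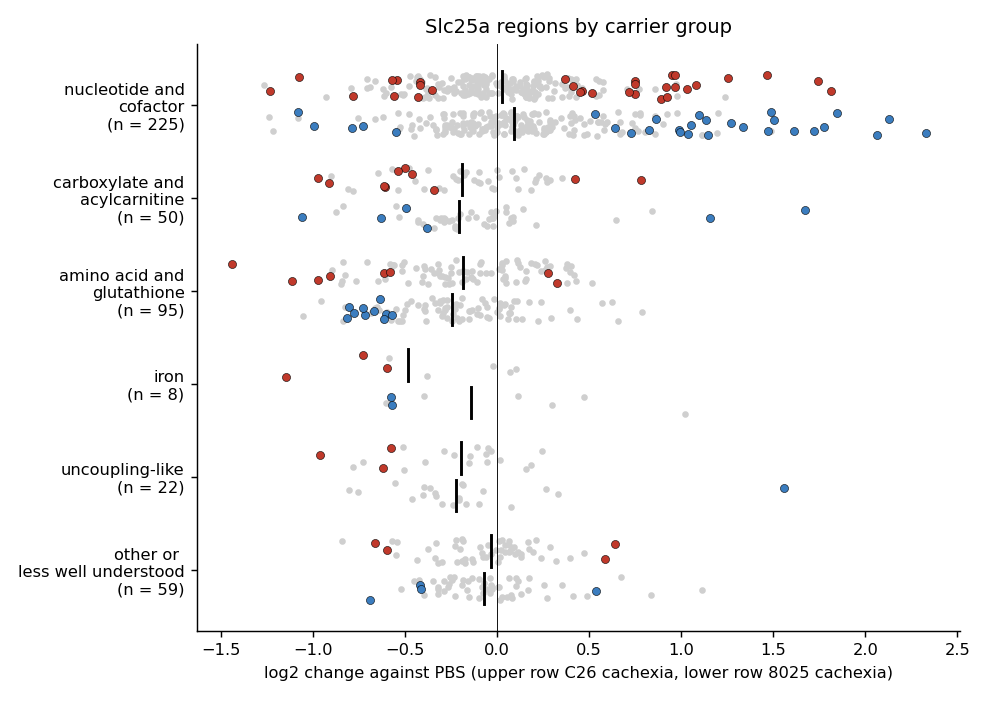
Log2 change of each of the 459 regions by carrier group, with C26 cachexia in the upper row of each group and 8025 cachexia in the lower row (each against its own PBS group). Colored points had an adjusted p under 0.05, grey points did not, and black bars are medians. Most colored points of the nucleotide and cofactor carriers lie right of 0 (21 and 24 rises against 10 and 5 falls), and all 10 colored 8025 points of the amino acid and glutathione carriers lie left of it.

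The models shared 22 called regions, 12 higher in both (10 places, 7 genes) and 10 lower in both (10 places, 5 genes), and 0 were called in opposite directions. They made up 37.3% of the C26 calls and 42.3% of the 8025 calls, beside 41.5% and 47.1% for all regions, so sharing was about as frequent as elsewhere. As a description over the 459 regions, which share their libraries, the Spearman coefficient of the log2 changes was 0.584 (0.546 over all regions), and 69.1% of regions had the same sign in both (68.2% over all). The 7 genes with shared rises were Slc25a25, Slc25a26, Slc25a29, Slc25a33, Slc25a36, Slc25a42 and Slc25a47, and the 5 with shared falls were Slc25a1, Slc25a5, Slc25a10, Slc25a13 and Slc25a37.

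**Figure D2:**
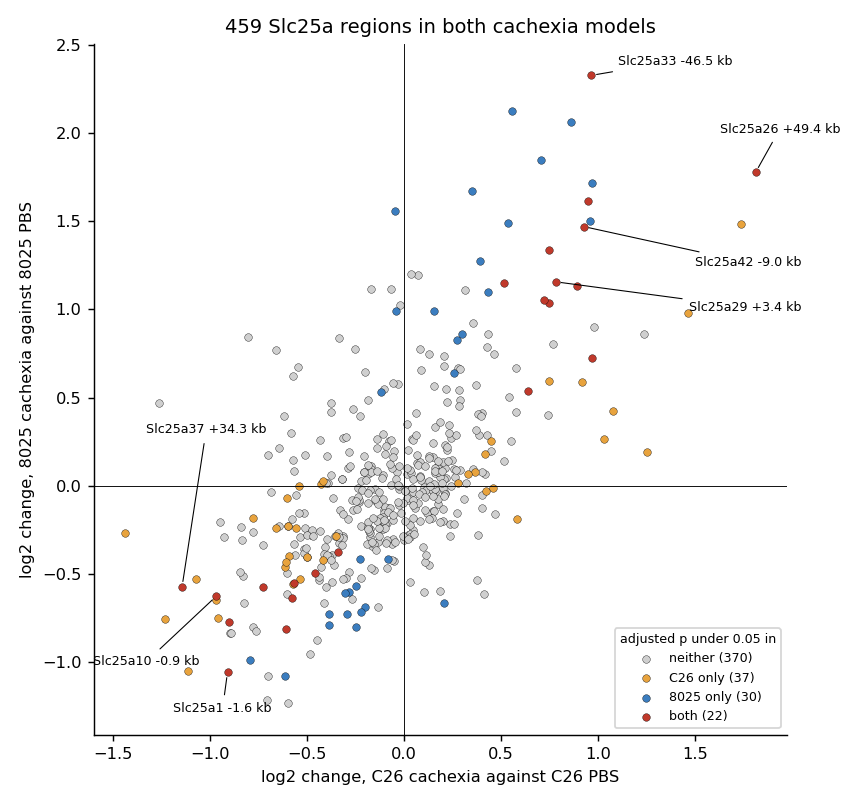
Each point is 1 of the 459 regions, with its log2 change in C26 cachexia (horizontal axis) and in 8025 cachexia (vertical axis), each against the PBS group of the cohort. Color gives the model in which the adjusted p was under 0.05, and labels give the gene and the distance to its start site. The 22 regions called in both lie in the upper right and lower left quadrants, 12 and 10 of them.

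**Figure D3:**
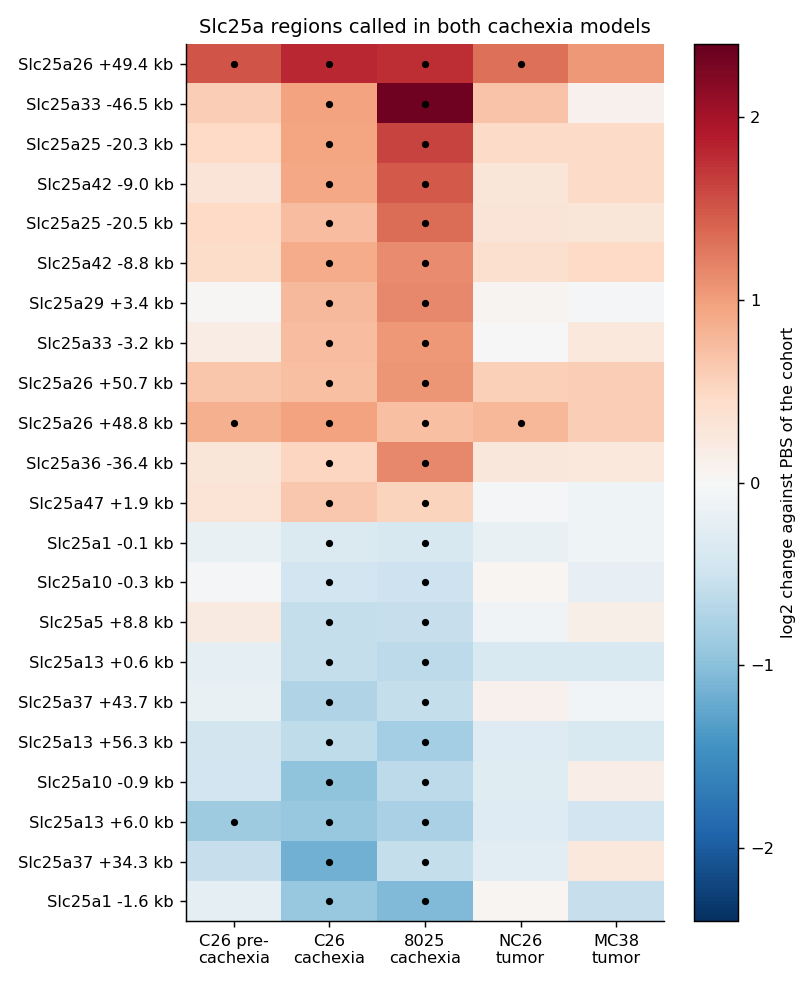
Log2 change against PBS of the 22 regions called in both cachexia models (rows, gene and distance to its start site) in 5 comparisons (columns). Color is the log2 change and a dot marks an adjusted p under 0.05. The Slc25a26 regions at +49.4 kb and +48.8 kb have a dot in 4 columns, Slc25a13 at +6.0 kb in 3 and the other rows in 2, and no row has a dot for MC38 tumor.

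Slc25a26, the S-adenosylmethionine carrier that supplies the matrix with methyl donor, had the strongest rise of the family in C26 cachexia, in an intron 49413 bp after its start site (chr6:94549527-94549927, mm10). C26 PBS libraries had 17.9, 33.8, 28.5 and 25.7 scaled tags, pre-cachexia 98.3, 67.01, 109 and 60.2, and cachexia 127, 91.7, 89.1 and 84.3. Every pre-cachexia and cachexia library was above every PBS library. Means rose from 26.5 ± 6.61 to 83.5 ± 23.6 and 98.05 ± 19.5 (SD, n = 4 each), with log2 changes of 1.51 ± 0.23 SE, adjusted p = 0.000182, in pre-cachexia and 1.81 ± 0.23 SE, adjusted p = 4.79e-07, in cachexia, a 3.52-fold rise. Cachexia and pre-cachexia were not distinguished (0.30 ± 0.23 SE, adjusted p = 0.545).

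The same intron region rose in 8025 cachexia and in NC26 tumor, and the change in MC38 tumor did not pass the test. In the 8025 cohort PBS libraries had 41.1, 24.7 and 20.1 and cachexia libraries 108, 107, 82.5 and 104, without overlap (1.78 ± 0.25 SE, adjusted p = 4.05e-06). NC26 mice, which kept their weight, went from 28.2, 24.8, 33.2 and 21.5 in PBS to 79.1, 45.4, 100.5 and 79.9 with tumor, again without overlap (1.32 ± 0.23 SE, adjusted p = 0.00432). Without replicate 1 of NC26 tumor, the library of 3474742 tags, the adjusted p was 0.0563. MC38 libraries had 43.5, 14.5, 35.4 and 25.9 in PBS and 43.6, 71.04, 60.3 and 70.5 with tumor, where the lowest tumor library (43.59) lay just above the highest PBS library (43.55) and the test was not passed (1.04 ± 0.23 SE, adjusted p = 0.109). Differences of effects did not pass it either, at 0.50 ± 0.32 SE, adjusted p = 0.496, for C26 minus NC26 and 0.74 ± 0.34 SE, adjusted p = 0.314, for 8025 minus MC38.

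With this region, the intron held 6 rises in C26 and 5 in 8025, all between 43758 and 51314 bp after the start site. The neighbor at 48811 bp rose in C26 cachexia (0.97 ± 0.18 SE, adjusted p = 0.000167), pre-cachexia (0.84 ± 0.18 SE, adjusted p = 0.00885), NC26 tumor (0.80 ± 0.18 SE, adjusted p = 0.0448) and 8025 cachexia (0.73 ± 0.20 SE, adjusted p = 0.0104), the last lost without 8025 PBS replicate 2 or 4 (adjusted p = 0.051 and 0.0523). Its NC26 call was lost in 11 of 21 alternatives (adjusted p = 0.0511 to 0.223), among them library totals alone, the replicate block, edgeR and leaving out any 1 of the NC26 PBS libraries. The pre-cachexia call was lost without pre-cachexia replicate 1 (adjusted p = 0.0604). At 50715 bp the rise was 0.72 ± 0.23 SE, adjusted p = 0.0258, in C26 and 1.05 ± 0.24 SE, adjusted p = 0.00269, in 8025. The C26 call there was lost without C26 PBS replicate 1 or 3 or cachexia replicate 1 (adjusted p up to 0.105). In 8025 the rises at 50715, 50981 and 51314 bp were at partly overlapping regions. Those at 50981 and 51314 bp were lost in 9 and 5 of 20 alternatives. The Slc25a26 promoter itself did not move detectably (log2 change 0.14 in C26 and -0.18 in 8025).

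**Figure D4:**
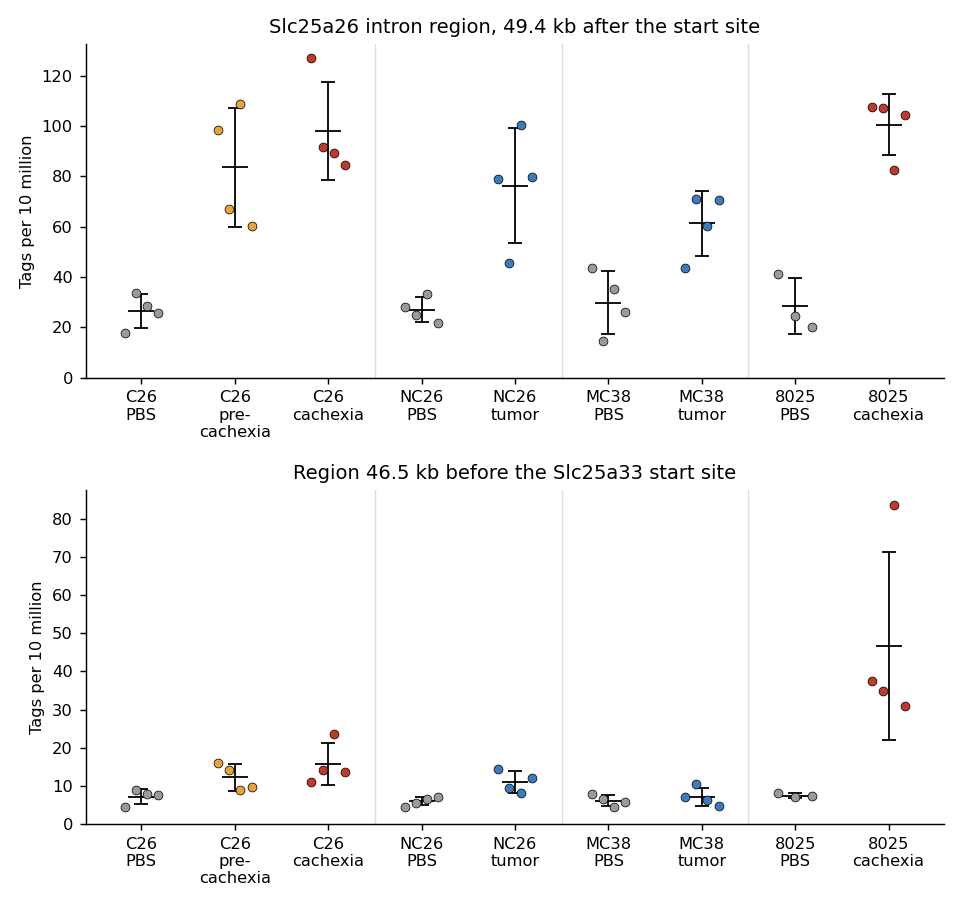
Scaled tags (tags per 10000000) of each library for the Slc25a26 intron region (top) and the region 46.5 kb before Slc25a33 (bottom), by group, with black bars for mean ± SD (n = 4, 8025 PBS n = 3). For Slc25a26 all PBS groups lie at 43.55 or below and the tumor-bearing groups between 43.59 and 127. For Slc25a33 the 8025 cachexia libraries (30.8 to 83.6) lie above all others.

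Pyrimidine nucleotide carriers Slc25a33 and Slc25a36 gained distal accessibility. For Slc25a33, a region 46503 bp before the start (chr4:149820570-149820970) went from 8.1, 7.05 and 7.2 in 8025 PBS to 37.6, 34.9, 83.6 and 30.8 in 8025 cachexia, the largest rise of the family (2.33 ± 0.30 SE, adjusted p = 3.77e-07, 5.02-fold). The libraries of both groups did not overlap, and replicate 3 of cachexia was highest. In C26 cachexia the rise was smaller (7.19 ± 1.899 to 15.7 ± 5.499, 0.97 ± 0.28 SE, adjusted p = 0.0133) and was lost without C26 PBS replicate 1 or cachexia replicate 3 (adjusted p = 0.0577 and 0.0914). MC38 tumor libraries stayed at 7.08 ± 2.43 beside 6.14 ± 1.43 in PBS, and the 8025 effect exceeded the MC38 effect (2.22 ± 0.41 SE, adjusted p = 0.00204).

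A second Slc25a33 region, 25990 bp before the start, followed another course. It had 35.2, 40.8, 30.6 and 49.98 scaled tags in C26 PBS, 88.2, 102, 104 and 80.02 in pre-cachexia and 92.9, 63.3, 90.7 and 64.5 in cachexia. All pre-cachexia and cachexia libraries exceeded the PBS libraries (1.15 ± 0.22 SE, adjusted p = 0.00341, in pre-cachexia and 0.92 ± 0.22 SE, adjusted p = 0.00327, in cachexia), and in 8025 the change did not pass the test (0.59 ± 0.24 SE, adjusted p = 0.103). Closer to the gene, at -3159 bp, both models rose (0.75 ± 0.20 SE, adjusted p = 0.00654, in C26 and 1.04 ± 0.21 SE, adjusted p = 0.000598, in 8025). For Slc25a36 a region at -36394 bp (chr9:97147235-97147635) went from 21.2, 22.6 and 27.5 to 66.8, 55.2, 50.5 and 50.9 in 8025, without overlap (1.15 ± 0.18 SE, adjusted p = 1.03e-05). The rise in C26 was 0.52 ± 0.17 SE, adjusted p = 0.0279, and was lost with library totals alone (adjusted p = 0.0844), with promoter share as a covariate (0.0537) and without C26 PBS replicate 1 or 4 or cachexia replicate 3 or 4 (0.0591 to 0.139). The 8025 effect at this region exceeded the MC38 effect (0.90 ± 0.24 SE, adjusted p = 0.0406), a call lost in 12 of 28 alternatives. Another Slc25a36 region, at -29630 bp, fell in C26 cachexia from 21.2 ± 3.02 to 10.3 ± 3.52 (-1.07 ± 0.27 SE, adjusted p = 0.00423).

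Slc25a42, which brings coenzyme A into the matrix, rose in both models at 2 overlapping regions that lie in an intron of the neighboring gene Armc6. At -8985 bp (chr8:70221066-70221466) C26 PBS libraries had 19.4, 19.4, 17.6 and 14.8 and C26 cachexia libraries 34.6, 38.8, 34.4 and 36. The 8025 libraries went from 15.9, 13.04 and 26.2 to 55.01, 54.3, 54.5 and 46.5. Neither pair of groups overlapped (0.93 ± 0.21 SE, adjusted p = 0.00135, and 1.47 ± 0.23 SE, adjusted p = 7.83e-06). In the same C26 comparison 3 other Slc25a42 regions fell, so the gene had calls in both directions. The promoter of Slc25a16, a carrier also linked to coenzyme A, rose in C26 from 74.8 ± 9.39 to 100.2 ± 8.01 (0.37 ± 0.11 SE, adjusted p = 0.0172). That call was lost with library totals alone (adjusted p = 0.0709), with promoter share as a covariate (0.209) and without C26 cachexia replicate 1 or PBS replicate 3 (0.0596 and 0.0995).

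Slc25a25, a calcium-regulated ATP-Mg/phosphate carrier, had the most rises of any member gene in 8025 cachexia, where 10 of its 28 regions rose and 0 fell (2 rose in C26). Over all regions 6.99% rose in 8025 and 6.91% in C26. Some of the Slc25a25 regions overlap, so they are not separate places. The 8025 call at -426 bp was lost in 8 of 20 alternatives and that at -13270 bp in 3 of 19. At -20304 bp (chr2:32471574-32471974) 8025 PBS libraries had 11.5, 11.3 and 16.7 and cachexia libraries 35.8, 42.9, 59.99 and 38.1. C26 libraries went from 13.4, 9.24, 7.43 and 13.04 to 32.5, 18.2, 23.98 and 16.5. Groups did not overlap in either model (1.61 ± 0.26 SE, adjusted p = 1.61e-05, in 8025 and 0.95 ± 0.24 SE, adjusted p = 0.00427, in C26). At -18584 bp the 8025 effect exceeded the MC38 effect (1.94 ± 0.52 SE, adjusted p = 0.0396), a call lost in 12 of 27 alternatives. These were library totals alone, the replicate block, the fit of the compared cohorts alone, edgeR, and leaving out 8025 PBS replicate 2, 8025 cachexia replicate 1 or 3, MC38 PBS replicate 2, 3 or 4 or MC38 tumor replicate 1 or 3 (adjusted p = 0.0512 to 0.257). The ADP/ATP carrier Slc25a5 went the other way, with a region 8761 bp after its start falling in both models (-0.57 ± 0.17 SE, adjusted p = 0.0159, in C26 and -0.55 ± 0.18 SE, adjusted p = 0.0367, in 8025). The 8025 call was lost in 10 of 20 alternatives, and the C26 call with library totals alone (adjusted p = 0.105), with promoter share as a covariate (0.0673) and without PBS replicate 4 or cachexia replicate 3 (0.108 and 0.0634).

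Slc25a51 imports NAD into the matrix, and its promoter region at -104 bp (chr4:45408670-45409070) rose in C26 cachexia and not detectably in pre-cachexia. PBS libraries had 64.9, 80.9, 65.3 and 63.02, pre-cachexia 71.3, 67.4, 60.8 and 68.96 and cachexia 97.4, 111, 88.5 and 93.2 scaled tags. Every cachexia library exceeded all those of both other groups, which overlapped each other. The rise was 0.45 ± 0.12 SE, adjusted p = 0.00840, against PBS and 0.58 ± 0.12 SE, adjusted p = 0.00204, against pre-cachexia, and it differed from the NC26 effect by 0.74 ± 0.17 SE, adjusted p = 0.0130. With promoter share as a covariate the call against PBS was lost (adjusted p = 0.0836), and the difference from NC26 was lost with that covariate (0.0501) and with library totals alone (0.114). A region 2524 bp before the start went from 13.1 ± 4.21 to 29.1 ± 3.81 (1.08 ± 0.24 SE, adjusted p = 0.00144) and its effect also exceeded that in NC26 (1.64 ± 0.35 SE, adjusted p = 0.00556). At both regions the difference was larger than the C26 rise itself. Part of it thus came from an NC26 tumor estimate below NC26 PBS, a fall that was not called. In 8025 the promoter went from 159, 175 and 186 to 246, 196, 206 and 213, without overlap but without passing the test (0.25 ± 0.13 SE, adjusted p = 0.233).

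Carboxylate and acylcarnitine carriers had calls in both directions. Slc25a29, known to transport basic amino acids and first described as a carnitine-type carrier, rose in an intron 3425 bp after its start (chr12:108832251-108832651). C26 PBS and pre-cachexia libraries had 25.6, 31.2, 30.3 and 20.3 and 27.9, 30.7, 34.3 and 24.97, and cachexia libraries 37.2, 56.5, 42.8 and 58.97. The 8025 libraries went from 20.6, 29.3 and 41.2 to 71.6, 66.6, 70.3 and 66.6. Cachexia libraries were above all others of their cohort (0.78 ± 0.17 SE, adjusted p = 0.000984, in C26 and 1.16 ± 0.19 SE, adjusted p = 1.61e-05, in 8025), C26 cachexia exceeded pre-cachexia (0.75 ± 0.17 SE, adjusted p = 0.00478, lost with promoter share as a covariate at 0.0572), and the 8025 effect exceeded that of MC38 (1.19 ± 0.25 SE, adjusted p = 0.00659).

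Slc25a10, which exports malate and succinate in exchange for phosphate, lost accessibility upstream of its start. At -924 bp (chr11:120490713-120491113) C26 PBS had 58.3, 67.2, 58.8 and 57.6, pre-cachexia 46.1, 61.4, 40.3 and 43.4 and cachexia 32.2, 45.5, 18.8 and 35.6. In 8025 the values were 56.1, 63.1 and 49.4 in PBS and 38.5, 41.2, 31.4 and 38.4 in cachexia. All cachexia libraries lay below all PBS libraries of the cohort (-0.97 ± 0.18 SE, adjusted p = 0.000113, in C26 and -0.63 ± 0.19 SE, adjusted p = 0.0246, in 8025). The 8025 call was lost with library totals alone (adjusted p = 0.104), with promoter share as a covariate (0.064) and without 8025 PBS replicate 1 or 2 or cachexia replicate 3 (0.0793 to 0.147). The region nearer the start, at -279 bp, also fell (-0.46 ± 0.15 SE, adjusted p = 0.0373, and -0.50 ± 0.17 SE, adjusted p = 0.0419), but each call there was lost in 9 of 21 and 13 of 20 alternatives, and the region at the start itself did not pass (-0.12 ± 0.10 SE, adjusted p = 0.505, and -0.24 ± 0.11 SE, adjusted p = 0.171).

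Slc25a1, the citrate exporter, showed a modest fall at its promoter (chr16:17928080-17928480), the region whose sequence with the E-box and GC boxes is given above. C26 PBS libraries had 164, 213, 177 and 173 and cachexia libraries 151, 195, 121 and 134. The 8025 libraries had 173, 235 and 226 in PBS and 204, 168, 137 and 166 in cachexia. Groups overlapped in both models, and the falls (-0.34 ± 0.11 SE, adjusted p = 0.0226, and -0.38 ± 0.11 SE, adjusted p = 0.0224) were lost with library totals alone (adjusted p = 0.283 and 0.268). They were also lost without C26 PBS replicate 1 or 4 or cachexia replicate 3 or 4 (0.057 to 0.156), and in 8025 with promoter share as a covariate (0.0609) or without 8025 PBS replicate 2 or 4 or cachexia replicate 3 (0.074 to 0.194). A weaker region at -1646 bp fell by more, from 18.6 ± 0.487 to 10.3 ± 3.38 in C26 (-0.91 ± 0.26 SE, adjusted p = 0.0120) and from 31.6 ± 7.17 to 15.5 ± 5.296 in 8025 (-1.06 ± 0.28 SE, adjusted p = 0.00777), without overlap. Those calls were lost without C26 cachexia replicate 4 or with library totals alone (adjusted p = 0.103 and 0.0538) and without 8025 PBS replicate 2 (0.0558). By contrast the promoter of Slc25a11, which exchanges oxoglutarate for malate, rose in C26 from 85.6, 117, 82.7 and 76.4 to 143, 128, 119 and 111 (0.42 ± 0.11 SE, adjusted p = 0.00593). The C26 groups overlapped, the change in 8025 was -0.03 ± 0.12 SE, adjusted p = 0.917, and the C26 call was lost with library totals alone (adjusted p = 0.0529) and with promoter share as a covariate (0.0547). The acylcarnitine carrier Slc25a20 rose in 8025 at a weak intron region (1.88 ± 0.414 to 8.49 ± 0.886, 1.67 ± 0.42 SE, adjusted p = 0.00469) with a peak in 1 library.

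Calls in the group of amino acid and glutathione carriers were mostly falls, though in C26 the share that fell (6.32%) was below that of all regions (7.13%). Slc25a29, which rose in both models, was not counted in this group. Slc25a13, the aspartate/glutamate carrier citrin of the malate-aspartate shuttle, had 6 falls and 0 rises among 51 regions in C26 cachexia and 4 falls and 0 rises in 8025, and 3 of these regions were shared. Over all regions 7.13% fell in C26 and 5.38% in 8025. The C26 falls at 5860 and 5997 bp are at overlapping regions, so they are not separate places. The median log2 change of Slc25a13 regions was -0.402 in C26 and -0.321 in 8025 (all regions -0.014 and -0.012). In the intron at 56296 bp (chr6:6160677-6161077) 8025 libraries fell from 56.7, 69.8 and 73.05 to 31.1, 39.02, 34.5 and 52.95, without overlap (-0.81 ± 0.18 SE, adjusted p = 0.00159). C26 libraries had 62.8, 82.2, 62.8 and 42.4 in PBS and 47.5, 44.3, 33.4 and 40.5 in cachexia and overlapped (-0.61 ± 0.17 SE, adjusted p = 0.00945, lost without cachexia replicate 3 at adjusted p = 0.0612 and with library totals alone at 0.104). Just inside the gene at 590 bp the falls were -0.58 ± 0.14 SE, adjusted p = 0.00375, in C26 and -0.64 ± 0.16 SE, adjusted p = 0.00376, in 8025, both lost with library totals alone (adjusted p = 0.0675 and 0.0603), while the promoter region at -13 bp changed by -0.09 and -0.15 and did not pass. At 5997 bp pre-cachexia was already lower than PBS (-0.85 ± 0.23 SE, adjusted p = 0.0458), a call lost in 11 of 21 alternatives.

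In 8025, Slc25a44, a branched-chain amino acid carrier, fell 3039 bp after its start from 85.1, 119.5 and 104 to 67.7, 77.1, 47.8 and 67.2, without overlap (-0.72 ± 0.16 SE, adjusted p = 0.00191), and the C26 effect there was -0.22 ± 0.15 SE, adjusted p = 0.376. Its promoter at -155 bp rose in C26 (0.33 ± 0.09 SE, adjusted p = 0.00904), a call lost with library totals alone (adjusted p = 0.0916), with promoter share as a covariate (0.088) and without C26 PBS replicate 4 (0.0521). The glutathione carrier Slc25a39 and its relative Slc25a40 fell just inside the gene in 8025 (-0.61 ± 0.16 SE, adjusted p = 0.00805, and -0.66 ± 0.20 SE, adjusted p = 0.0237). These calls were lost with library totals alone (adjusted p = 0.108 and 0.111), that of Slc25a39 also without PBS replicate 1 (0.0649) and that of Slc25a40 without PBS replicate 2 or 4 or cachexia replicate 2 or 4 (0.0531 to 0.113). Whether 8025 and C26 differ at these regions was tested and not called (adjusted p = 0.489, 0.741 and 0.241).

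Slc25a37, mitoferrin-1, which imports iron, lost accessibility at 3 of 5 regions in C26 cachexia and at 2 of 5 in 8025, beside 7.13% and 5.38% of all regions. At 34278 bp inside the gene (chr14:69250625-69251025) the C26 libraries went from 46.3, 53.9, 67.5 and 39.1 in PBS through 30.8, 51.1, 31.1 and 37.7 in pre-cachexia to 20.9, 32.03, 17.2 and 25.4 in cachexia. Cachexia libraries lay below all PBS libraries and overlapped pre-cachexia (-1.15 ± 0.18 SE, adjusted p = 7.54e-06, against PBS and -0.59 ± 0.18 SE, adjusted p = 0.0377, against pre-cachexia, the latter lost in 7 of 21 alternatives). NC26 libraries had 50.7 ± 8.82 in PBS and 47.4 ± 15.1 with tumor, and at 43694 bp, where C26 also fell (-0.73 ± 0.16 SE, adjusted p = 0.00128), the C26 effect was more negative than the NC26 effect (-0.83 ± 0.23 SE, adjusted p = 0.0412), a call lost in 15 of 29 alternatives. In 8025 the fall was -0.57 ± 0.19 SE, adjusted p = 0.0412, lost in 10 of 20 alternatives, library totals alone among them (adjusted p = 0.218). The other mitoferrin gene, Slc25a28, had 0 calls in either cachexia model, and its promoter changed by 0.07 and 0.12.

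Of the less well understood carriers, the liver-enriched Slc25a47 rose in both models in an intron 1944 bp after its start (chr12:108852873-108853273). C26 PBS, pre-cachexia and cachexia libraries had 69.6, 79.98, 75.5 and 47.1, then 80.4, 88.2, 105 and 90.8, then 109, 109.9, 106 and 110.0. The 8025 libraries went from 65.1, 96.9 and 69.5 to 129, 108, 108 and 116. Cachexia exceeded PBS in every library of both cohorts (0.64 ± 0.14 SE, adjusted p = 0.000947, and 0.54 ± 0.15 SE, adjusted p = 0.0126). The 8025 call was lost without PBS replicate 1 or 4 (adjusted p = 0.0791 and 0.0912), and the authors called a peak at this position in 2 libraries. Slc25a48, reported to carry choline, fell at its start in 8025 from 153, 189 and 160.0 to 124, 99.1, 88.4 and 120.2, without overlap (-0.69 ± 0.13 SE, adjusted p = 0.000386), and in C26 the change was -0.20 ± 0.12 SE, adjusted p = 0.324. Slc25a46, which acts in the outer membrane, rose 509 bp after its start in C26 from 37.1 ± 4.67 to 58.03 ± 3.13 (0.58 ± 0.16 SE, adjusted p = 0.00928), with 58.7 ± 9.22 in pre-cachexia (0.54 ± 0.16 SE, adjusted p = 0.0842).

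In pre-cachexia few regions differed. In C26 pre-cachexia against PBS 3 regions rose (0.654%, background 0.97%) and 2 fell (0.436%, background 0.296%), the rises at Slc25a26 and Slc25a33 and the falls at Slc25a13. The count of 5 was 2 without pre-cachexia replicate 1 and 3 without PBS replicate 1 or 2 or pre-cachexia replicate 2, 3 or 4, and with library totals alone 3 rose and 0 fell. Comparing C26 cachexia with pre-cachexia, which shares libraries with those comparisons, 8 rose (1.74%, background 2.16%) and 10 fell (2.18%, background 3.24%). Rises included Slc25a51 at -2524 bp (1.19 ± 0.24 SE, adjusted p = 0.00150), and falls Slc25a5 at 8761 bp (-0.78 ± 0.17 SE, adjusted p = 0.00243) and Slc25a30, an uncoupling-like carrier, at -16241 bp (-0.84 ± 0.19 SE, adjusted p = 0.00422). At that Slc25a30 region the values were 79.1, 126, 83.2 and 87.1 in pre-cachexia and 69.4, 36.4, 45.4 and 51.8 in cachexia, with 65.1, 75.5, 65.01 and 80.8 in PBS, so the mean of pre-cachexia was the highest of the 3 groups. The count of 18 fell to 7 without pre-cachexia replicate 2 and to 8 without cachexia replicate 4.

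Tumors that left body weight stable gave 2 calls at most. In NC26 tumor against PBS 2 regions rose (0.436%, background 0.146%), both in the Slc25a26 intron, and 0 fell (background 0.0401%). Without NC26 tumor replicate 1 the count was 0, and it was 1 without NC26 PBS replicate 1, 2, 3 or 4 or tumor replicate 3. In MC38 tumor against PBS limma called 0 regions up (background 0.0181%) and 0 down (background 0.000564%), with 32 of 459 at an unadjusted p under 0.05, beside 11208 of all 177251 regions. DESeq2 called 1 there and edgeR 0, and limma called 1 without MC38 PBS replicate 1.

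Tests of the difference between tumor types were passed by few regions. C26 cachexia exceeded NC26 tumor at 4 regions (0.871%, background 1.04%), all at Slc25a51, and was more negative at 2 (0.436%, background 1.1%), both at Slc25a37. The 4 Slc25a51 regions overlap and make up 2 places. The count of 6 was 3 without C26 PBS replicate 3 or NC26 PBS replicate 1, 2 without NC26 PBS replicate 2 or NC26 tumor replicate 1, and 2 rises and 0 falls with library totals alone. The 8025 effect exceeded the MC38 effect at 4 (0.871%, background 0.922%), at Slc25a25, Slc25a29, Slc25a33 and Slc25a36, and was more negative at 0 (background 0.779%). The count of 4 was 2 without 8025 PBS replicate 2, 8025 cachexia replicate 1 or 3 or MC38 tumor replicate 3, and 7 without 8025 PBS replicate 4. Between the C26 and 8025 cachexia effects limma called 0 regions higher (background 0.0282%) and 0 lower (background 0.0745%). An unadjusted p under 0.05 was reached by 37 of 459, beside 16029 of all 177251 regions. DESeq2 called 1 and edgeR 0, and limma called 1 without 8025 PBS replicate 4. At the Slc25a33 region at -46503 bp, whose 8025 rise was the largest, the difference was -1.36 ± 0.41 SE, adjusted p = 0.199.

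PBS mice of BALB/c and C57BL/6N differed at more member regions than any tumor comparison between cohorts. Here 18 regions were higher in BALB/c (3.92%, background 6.42%) and 34 lower (7.41%, background 7.04%), of which 3 and 17 lay within 1 kb of a start site. These were 2.68% and 15.2% of the 112 member regions within 1 kb, beside 2.85% and 9.39% of all such regions. Regions near start sites were thus more often lower in BALB/c over the whole table as well, and the difference in shares was not tested. With the replicate block 10 were higher and 18 lower. The largest difference was a region 19573 bp before Slc25a33 (chr4:149793640-149794040), where BALB/c libraries had few tags. Whether reads of both strains map equally well to mm10 there was not tested. PBS values were 4.91, 3.19, 5.57 and 5.07 in the C26 cohort and 4.98, 5.95, 6.89 and 4.25 in the NC26 cohort, and 71.2, 59.1, 80.3 and 83.8 and 58.6, 58.9 and 62.5 in the MC38 and 8025 cohorts. No BALB/c library of any group exceeded 12.7 and no C57BL/6N library was below 55.4 (-3.39 ± 0.19 SE, adjusted p = 2.39e-19), and no tumor moved it detectably.

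The Slc25a51 promoter differed in the same direction, with 68.5 ± 8.32 and 75.3 ± 16.6 in the BALB/c PBS groups and 214 ± 27.7 and 174 ± 13.6 in the C57BL/6N ones (-1.28 ± 0.10 SE, adjusted p = 3.02e-14). Even in C26 cachexia, where it rose, its highest library (111) stayed below the lowest C57BL/6N library (159). Higher in BALB/c were a region 11607 bp before Slc25a46 (76.6 ± 15.7 and 74.5 ± 8.08 against 38.6 ± 12.3 and 43.2 ± 10.6, 1.04 ± 0.13 SE, adjusted p = 1.30e-08) and one in an intron of Plekhm2 nearest to Slc25a34 (1.44 ± 0.23 SE, adjusted p = 4.07e-06). Slc25a22, a glutamate carrier, was lower in BALB/c at 587 bp (-0.73 ± 0.12 SE, adjusted p = 6.35e-06). With library totals alone 10 regions were higher in BALB/c and 22 lower, and with cyclic loess scaling 22 regions were higher and 22 lower.

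**Figure D5:**
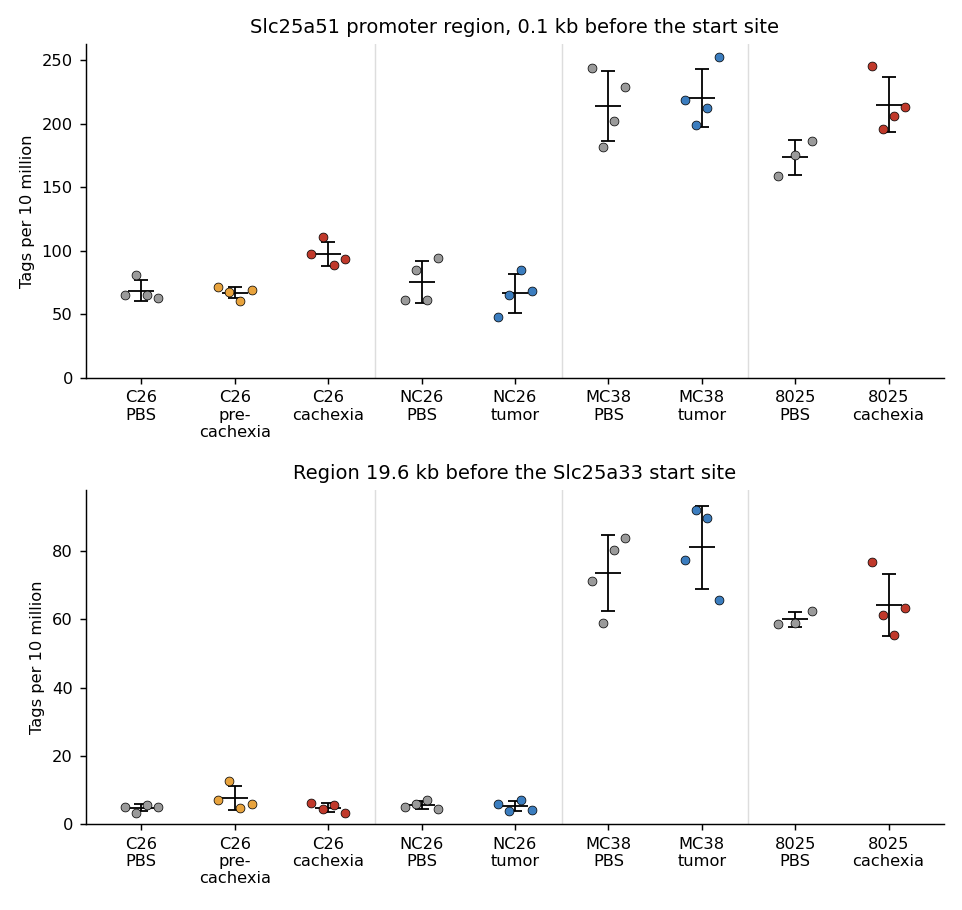
Scaled tags (tags per 10000000) of each library for the Slc25a51 promoter region (top) and the region 19.6 kb before Slc25a33 (bottom), by group, with black bars for mean ± SD (n = 4, 8025 PBS n = 3). C26 and NC26 groups are BALB/c, MC38 and 8025 groups are C57BL/6N. At Slc25a51 the BALB/c libraries reach 111 at most and the C57BL/6N libraries are at 159 or more, and C26 cachexia stands above the other BALB/c groups in mean.

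Other genes of mitochondrial transport were counted for comparison, 32 genes with 358 regions, among them the voltage-dependent channels, the calcium uniporter, the pyruvate carrier, the uncoupling proteins and the enzymes of the carnitine and malate-aspartate systems. In C26 cachexia 55 rose (15.4%) and 32 fell (8.94%), and in 8025 cachexia 32 rose (8.94%) and 28 fell (7.82%), beside the background of 6.91% and 7.13% and of 6.99% and 5.38%. The examples with the lowest adjusted p in C26 were an intron region of the calcium uniporter gene Mcu (92.3 ± 15.2 to 179 ± 18.98, log2 change 0.90 ± 0.13 SE, adjusted p = 1.18e-06) and one of the aspartate aminotransferase gene Got1 (81.9 ± 27.4 to 141 ± 11.2, 0.78 ± 0.11 SE, adjusted p = 1.45e-06). In 8025 an example was an intron region of the carnitine palmitoyltransferase gene Cpt1a (9.23 ± 5.19 to 49.4 ± 5.07, 2.36 ± 0.29 SE, adjusted p = 1.11e-07). Weight-stable tumors gave 1 rise (NC26, Mcu) and 0 calls (MC38).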

How the data were processed

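ATAC-seq was done on INTACT-purified hepatocyte nuclei in 35 libraries, each from its own animal. The signal values deposited by the authors are tags per 400 bp region scaled to 10000000 tags per library, per the file headers. BWA 0.7.5a-r405, SAMtools, HOMER and mm10 are named, per the submitters' processing notes, whereas how duplicates were treated and how peaks were called was not found in the labels or headers. Multiplied back by the library totals, 100% of values were whole read ends (0.5 tag each, tolerance 0.05).

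The values were normalized, so the test planned for normalized data was used: TMM scaling, log2(value + 1), and limma 3.58.1 (trend, robust) with Benjamini-Hochberg adjustment. It was fitted to all libraries at once with a term per group and 1 for the library number series in the headers, over the 177251 of 177904 regions kept by edgeR's filterByExpr (minimum count 10, minimum total 15). A region was called at an adjusted p under 0.05. Printed levels are the deposited values, so log2 changes and folds, which are on the scaled log2(value + 1) scale, can differ from the ratio of printed means and understate changes of low regions. Alternatives were pseudocounts of 0.5 and 5, other scaling (RLE, library totals, cyclic loess), other filters, no series term, a replicate block, promoter share as a covariate, the compared cohorts alone, each library left out, and edgeR 4.0.16 and DESeq2 1.42.0 on the recovered read ends. The fit was tested on simulated data for C26 cachexia against C26 PBS, with the same assumed dispersion for every region. It recovered 30 of 100 regions changed 2-fold and 95 of 100 changed 4-fold, and called 3 of 175184 unchanged regions. Far fewer regions were changed there than were called in C26 cachexia, which makes the adjusted threshold stricter. The changed regions were also drawn from those with higher counts. The recovery rates therefore need not hold for these data, but a change of about 2-fold can go uncalled. R 4.3.3, Python 3.11.15, pandas 2.3.3, SciPy 1.17.1 and matplotlib 3.10.9 were used.

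Members and gene lists were chosen with earlier results of these data known. Named regions were the region nearest each start within 1 kb, per gene the called region with the lowest adjusted p (up to 20 genes in each cachexia model, 8 in other comparisons with PBS, 5 in differences of effects and strain), and regions called in both models. Same-numbered replicates did not deviate together, so no pairing was used. Some genes are not reported here.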

Additional observations from a re-analysis of the deposited data

Results flagged for a closer look

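In 53 named regions 424 groups of 4 libraries were examined for a library far from the other 3 by Dixon's test at 95%, and 24 (5.66%) had one, where chance gives about 1 in 20. In tumor-bearing groups of the C57BL/6N cohorts, 8025 cachexia replicate 3 was low at Slc25a26 +49413 bp (82.51 scaled tags, others 104.44 to 107.65) and at Slc25a13 +590 bp (37.26, others 45.8 to 47.02). It was high at Slc25a33 -46503 bp (83.56, others 30.84 to 37.56). Replicate 1 of that group was high at Slc25a45 (42, others 26.76 to 28.84) and replicate 4 low at Slc25a42 -8985 bp (46.55, others 54.28 to 55.01). MC38 tumor replicate 3 was high at the Slc25a1 promoter (227.67, others 202.51 to 205.9) and at Slc25a22 +587 bp (143.84, others 100.15 to 105.06), and MC38 tumor replicate 1 was low at Slc25a20 +12663 bp (0.65, others 2.96 to 3.36). NC26 tumor replicate 2 was low at the Slc25a16 promoter (74.91, others 113.93 to 120.87), at Slc25a13 +590 bp (47.09, others 74.15 to 78.98) and at Slc25a36 -36394 bp (22.26, others 35.96 to 37.41). NC26 tumor replicate 1, the shallowest library, was high at Slc25a10 -279 bp (136.7, others 79.31 to 83.9).

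C26 cachexia replicate 1 was high at Slc25a26 +50715 bp (81.05, others 52.19 to 56.57) and replicate 3 at Slc25a20 +12663 bp (7.78, others 2.64 to 3.09). In pre-cachexia, replicate 3 was low at Slc25a25 -20304 bp (12.7, others 17.59 to 17.69) and replicate 4 in a region of Slc25a13 (9.08, others 11.89 to 12.06). C26 PBS replicate 2 was high at the Slc25a51 promoter (80.94, others 63.02 to 65.32) and at Slc25a10 -924 bp (67.24, others 57.59 to 58.82). NC26 PBS replicate 2 was low in a region of Slc25a3 (32.88, others 39.72 to 40.65) and high at Slc25a25 -18584 bp (7.7, others 2.43 to 3.32). MC38 PBS replicate 1 was high at Slc25a37 +34278 bp (69.22, others 33.81 to 36.37). MC38 PBS replicate 2 was high at Slc25a34 -19877 bp (7.93, others 5.85 to 6.06) and low at Slc25a40 +262 bp (19.83, others 27.62 to 28.62) and in a region of Slc25a32 (1.76, others 10.78 to 11.69).

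Effects differed between tumors at 10 regions by the test of the difference itself. For C26 minus NC26, 0.871% of member regions were higher and 0.436% lower, beside 1.04% and 1.1% of all regions. For 8025 minus MC38 the shares were 0.871% and 0%, beside 0.922% and 0.779%. C26 cachexia minus NC26 tumor was 1.644, 0.7444, 0.7496 and 2.045 at 4 regions of Slc25a51 (log2, limma, adjusted p = 0.00556, 0.013, 0.0179 and 0.0214) and -0.8275 and -0.8888 at 2 regions of Slc25a37 (0.0412 and 0.0478). The 4 Slc25a51 regions overlap and make up 2 places. The Slc25a37 calls were lost in 15 and 18 of 29 alternatives. 8025 cachexia minus MC38 tumor was 2.223 at Slc25a33, 1.192 at Slc25a29, 1.936 at Slc25a25 and 0.9001 at Slc25a36 (limma, adjusted p = 0.00204, 0.00659, 0.0396 and 0.0406).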

How the results depend on the processing

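No named region reversed direction in any alternative run: leaving out 1 library, 615 of 751 values kept the call and 136 lost it, and under the other alternatives 1060 of 1140 kept it and 80 lost it, 29 of these with library totals alone and 18 with promoter share as a covariate. The causes were not tested. Counts of called member regions that moved by over 1.5 times were, with library totals alone, 30 in C26 cachexia (59 as reported), 3 in pre-cachexia (5), 10 in cachexia against pre-cachexia (18), 1 in NC26 (2), 2 in C26 minus NC26 (6), 2 in 8025 minus MC38 (4) and 32 in the strain comparison (52). Promoter share as a covariate gave 37 in C26 cachexia, 6 in cachexia against pre-cachexia and 1 in C26 minus NC26. Fitting the compared cohorts alone gave 10 in pre-cachexia, 29 in cachexia against pre-cachexia, 1 in NC26 and 2 in 8025 minus MC38. Cyclic loess and no filter each gave 3 in pre-cachexia. A pseudocount of 5 gave 7 in 8025 minus MC38 and 1 in C26 minus 8025. DESeq2 gave 10 in pre-cachexia, 1 in MC38, 9 in 8025 minus MC38 and 1 in C26 minus 8025, and edgeR 1 in NC26.

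Leaving out each library gave 40 to 57 in C26 cachexia, 2 to 5 in pre-cachexia, 7 to 24 in cachexia against pre-cachexia, 35 to 48 in 8025, 0 to 2 in NC26, 0 to 1 in MC38, 2 to 9 in C26 minus NC26, 2 to 7 in 8025 minus MC38, 0 to 1 in C26 minus 8025 and 38 to 49 for strain. Same-numbered replicates did not deviate together (correlations -0.155 to 0.077). With the replicate block the counts were 59 in C26 cachexia, 47 in 8025, 3 in pre-cachexia, 1 in NC26, 2 in 8025 minus MC38 and 28 for strain. NC26 tumor replicate 1 held 3474742 tags, which limits the precision of the NC26 comparisons.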
